A study of Mus musculus with 12 samples.

Results

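The genes described here are the 355 genes of mouse chromosome 12 that are expressed in a B cell lymphoma line whose copies carry different versions of the ribosomal protein RPL12. They were selected on position and expression: genes that GENCODE M21 places on chromosome 12 of GRCm38, with at least 10 reads in at least 2 of 12 libraries, without Fos, Batf and Id2 and without a span of several Mb near the distal end, which begins just after Akt1 (chr12:112653821-112674884) and ends just before Cdca7l (chr12:117804289-117878706). They are 355 of 51826 genes in the files, and of 2136 chromosome 12 genes outside those exclusions. The span held 24 more genes past the read threshold, and 2 of the named genes passed it. Chromosome 12 itself was chosen by its values, because genes there stood higher in the S38A line than in WT in these same libraries, so S38A against WT is given as a description: no p is printed for it, and its counts of called members stand beside the share of all genes and support nothing. Of the members, 324 are protein coding and 225 had a mean of at least 10 CPM (read counts scaled by library size and TMM factor). The model across all genes tested 354 members and left out Mipol1.

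The series compared RNA in 19DN cells, a subline of the mouse lymphoma line 19PP from which Flp recombinase had removed the GFP and hCD2 reporters. The 19PP line grew in a Rag2-/-γC-/- mouse, which lacks lymphocytes of its own, given bone marrow with Cγ1-Cre, a Cre active in germinal centre B cells, and Myc and P110* alleles behind stop cassettes that Cre removes, so all cells here share Myc and active PI3K signalling. RPL12 was wild type (WT), or carried alanine (S38A) or aspartate (S38D) at serine 38, and how each line was made, from 1 clone or several, is not given in the sources used here. With 1 line per version, the RPL12 change and any other difference between the lines cannot be told apart. Each line was collected asynchronous and mitotic, the latter after 100 ng/mL nocodazole, which blocks the spindle, for 8 h and 10 min of release, all in 100 µg/mL cycloheximide, which freezes ribosomes. Each of the 6 groups had 2 libraries, and since nothing says that these came from separate cultures, p-values measure only the spread between libraries.

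Cells of a cultured tumour line can gain or lose whole chromosomes or long arms. In most known cases the RNA of genes on a gained chromosome rises roughly with the number of copies, and a minority of genes depart from it through their own regulation. As a scale, 3 copies in place of 2 correspond to a log2 difference of 0.58 if RNA follows copies. Copy number was not measured in these libraries, and whether dosage is behind the differences below was not tested. In bulk RNA, more cells with a higher level and more RNA per cell cannot be told apart.

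Gene reads per library ranged from 3432875 to 6587997. Of 10 B cell markers, 9 were measured, and their summed level ran from 1475 to 3284 CPM, lowest in mitotic WT and highest in asynchronous S38A. The part of this sum in the results was not tested. Of T and NK cell markers 0 of 10 reached 10 reads in 2 libraries, of myeloid markers 1 of 8 (Csf1r) and of stromal, epithelial and erythroid markers 1 of 8 (Epcam), with Cd3e, Cd4, Cd8a, S100a8, Itgam, Cd14 and Krt8 at 0. The 2 asynchronous S38D libraries stood apart from each other, with an SD of 0.68 (log2) for the replicate difference over the members, and so did the mitotic WT libraries (0.51), against 0.35 to 0.38 in the other groups. Over genes on other chromosomes, differences from WT moved with base composition: from the lowest to the highest of 8 classes of GC content in the last 300 nt, the median of S38A minus WT ran from -0.27 to 0.17 in asynchronous cells and from 0.15 to -0.11 in mitotic cells. The members' values are therefore also given after subtracting these class medians, a GC adjustment chosen after seeing the data.

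Start regions are shown for 4 members that stood low against the chromosome median in S38A and 2 that stood high, so that the genes that depart from the rest of the chromosome can be seen beside their values. Each is the RefSeq window from 250 bases before to 50 after the start, on GRCm38.p6. Gpr65 encodes a receptor that senses acid and lies at chr12:98268385-98268684 (plus strand). Flrt2, a cell-adhesion and guidance protein, is at chr12:95691976-95692275 (plus). Ifrd1, a transcriptional coregulator, is at chr12:40223140-40223439 (minus), where RefSeq's start lies 25315 bases from the outermost GENCODE start. Psma3, a subunit of the 20S proteasome, is at chr12:70974373-70974672 (plus). Cpsf2, a subunit of the complex that cleaves pre-mRNA at its 3′ end, is at chr12:101975724-101976023 (plus), and Adssl1, an enzyme of adenine nucleotide synthesis, is at chr12:112619797-112620096 (plus). Capitals mark matches, on either strand, to the CCAAT box (CCAAT), the E-box bound by MYC and MAX (CACGTG), the cyclic AMP response element (TGACGTCA), the ATF4 composite site (TGATGNAAN), an ETS factor site (CCGGAAGT) or the NRF1 core (GCGCATGC).
Gpr65: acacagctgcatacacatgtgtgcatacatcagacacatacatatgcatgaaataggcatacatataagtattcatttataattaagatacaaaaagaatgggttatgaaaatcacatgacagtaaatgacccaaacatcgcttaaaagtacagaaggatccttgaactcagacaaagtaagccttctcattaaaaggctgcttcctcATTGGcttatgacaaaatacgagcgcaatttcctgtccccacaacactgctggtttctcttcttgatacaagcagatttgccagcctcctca
Flrt2: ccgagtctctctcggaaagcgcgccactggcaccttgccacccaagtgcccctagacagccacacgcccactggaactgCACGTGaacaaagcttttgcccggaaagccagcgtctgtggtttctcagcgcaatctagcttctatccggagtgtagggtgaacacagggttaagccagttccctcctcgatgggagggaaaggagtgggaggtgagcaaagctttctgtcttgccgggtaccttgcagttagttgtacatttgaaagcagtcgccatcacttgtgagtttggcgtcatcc
Ifrd1: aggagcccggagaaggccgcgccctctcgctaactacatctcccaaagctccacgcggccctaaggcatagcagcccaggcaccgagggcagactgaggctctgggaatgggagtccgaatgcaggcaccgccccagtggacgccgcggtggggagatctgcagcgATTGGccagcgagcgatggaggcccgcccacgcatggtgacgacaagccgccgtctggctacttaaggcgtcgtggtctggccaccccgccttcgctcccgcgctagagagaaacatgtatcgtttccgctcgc
Psma3: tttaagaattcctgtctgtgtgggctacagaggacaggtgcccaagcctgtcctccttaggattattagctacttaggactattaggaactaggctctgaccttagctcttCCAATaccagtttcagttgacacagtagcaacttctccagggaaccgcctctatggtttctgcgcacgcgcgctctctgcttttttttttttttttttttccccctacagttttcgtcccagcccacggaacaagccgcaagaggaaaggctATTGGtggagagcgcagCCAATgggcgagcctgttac
Cpsf2: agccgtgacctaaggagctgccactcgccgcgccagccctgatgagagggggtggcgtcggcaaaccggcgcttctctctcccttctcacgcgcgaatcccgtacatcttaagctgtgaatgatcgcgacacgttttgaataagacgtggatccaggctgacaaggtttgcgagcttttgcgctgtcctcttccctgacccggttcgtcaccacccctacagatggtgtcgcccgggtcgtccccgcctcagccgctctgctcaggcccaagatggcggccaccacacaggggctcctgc
Adssl1: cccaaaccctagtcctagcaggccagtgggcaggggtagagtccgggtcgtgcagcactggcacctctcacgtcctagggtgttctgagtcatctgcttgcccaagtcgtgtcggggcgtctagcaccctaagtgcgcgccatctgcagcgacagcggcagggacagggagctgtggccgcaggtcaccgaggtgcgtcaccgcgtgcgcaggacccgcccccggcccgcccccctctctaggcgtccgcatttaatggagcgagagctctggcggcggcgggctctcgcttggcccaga

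No motif stood in all 4 low windows. A CCAAT match, on either strand, stood in the windows of Gpr65 (1), Ifrd1 (1) and Psma3 (3), a CACGTG match stood in that of Flrt2 (1), and the windows of Cpsf2 and Adssl1 held no match to any of the 6. CCAAT was in 40.3% of the 293 member windows and in 37.4% of all 32851 windows of the table, and CACGTG in 10.9% and 7.15%. The CpG count was 3 for Gpr65, 14 for Flrt2, 10 for Psma3 and 29 for Ifrd1, against 26 for both Cpsf2 and Adssl1. The median was 24 over the member windows. It was also 24 (range 10 to 50) over the 8 members named below by rule as farthest below the chromosome median. Over the 6 members with a window among the 8 farthest above, it was 25 (10 to 46). Some of these windows lie far from the outermost GENCODE start, as for Ifrd1. That of Pnpla8 in the low set lies 47784 bases away. That of Cdca7l in the high set, with the count of 46, lies 39572 bases away. The low and high sets chosen by rule thus did not differ in CpG count as the 6 windows shown do.

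Most members stood higher in S38A than in WT in both states, over most of the length of chromosome 12. The median of the 354 members was 0.46 (log2 S38A minus WT, 1.38-fold) in asynchronous cells, with 281 above 0, and 0.64 (1.56-fold) in mitotic cells, with 317 above 0. The medians of the other 19 chromosomes measured ran from -0.18 (chromosome 3) to 0.07 (chromosome 17) in asynchronous and from -0.04 (chromosome 5) to 0.23 (chromosome X) in mitotic cells. After the GC adjustment the members' medians were 0.53 (1.45-fold) and 0.60 (1.51-fold), so the 2 states came closer to each other. Both S38D comparisons with WT use the same WT libraries and are given side by side: the members' medians there were -0.06 and 0.07. Measured against S38D in place of WT, S38A stood higher by medians of 0.49 and 0.56. Among members of at least 10 CPM, 14 of 225 in asynchronous and 16 of 225 in mitotic cells were higher in S38D than in S38A.

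**Figure D1:**
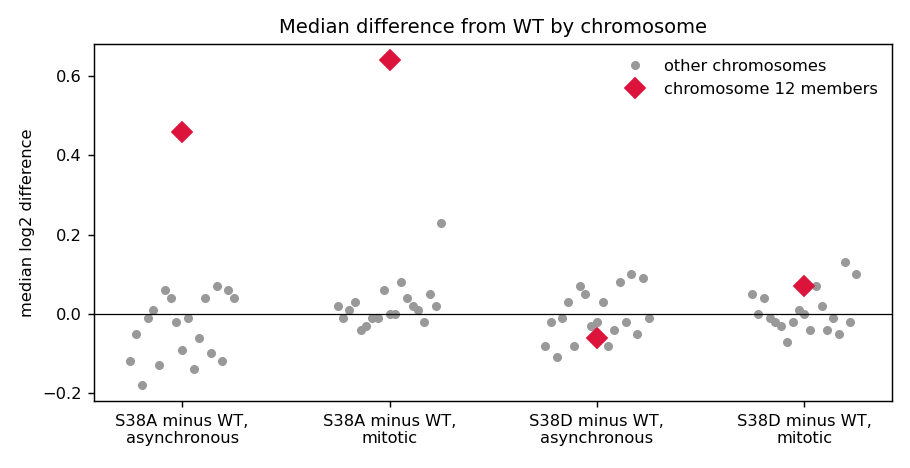
Median log2 difference from WT (y axis) for each chromosome in 4 comparisons (x axis); the diamond is the median of the chromosome 12 members and grey points are the other 19 chromosomes. In both S38A comparisons the diamond (0.46 and 0.64) lies above all other chromosomes, and in both S38D comparisons (-0.06 and 0.07) it lies among them.

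The same separation was seen library by library. The members took 1.94% of gene reads in each asynchronous WT library, against 2.62% and 2.58% with S38A and 1.8% and 1.91% with S38D. In mitotic cells they took 1.94% and 1.95% in WT, 2.73% and 2.76% in S38A, and 1.97% and 1.95% in S38D. All 4 S38A libraries lay above all 8 others. Against the WT mean of the same state, the members' median log2 level was 0.45 and 0.44 in the asynchronous S38A libraries and 0.60 and 0.61 in the mitotic ones. It lay between -0.03 and 0.08 in the 4 S38D libraries, including both asynchronous libraries that stood apart.

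**Figure D2:**
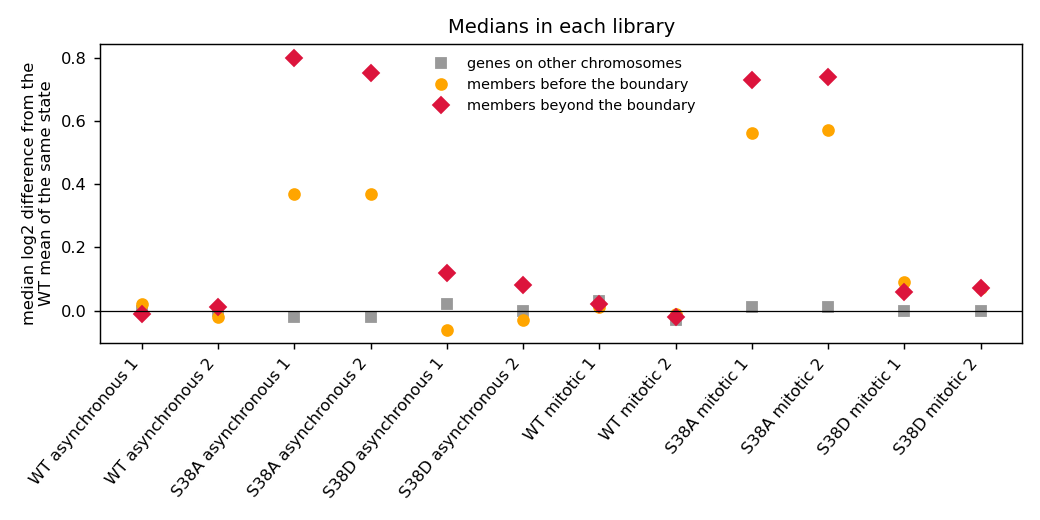
Median log2 difference from the WT mean of the same state (y axis) in each of the 12 libraries (x axis) for genes on other chromosomes (squares), the 270 members before a boundary at 95 Mb (circles) and the 84 members beyond it (diamonds). The 4 S38A libraries have both member medians at 0.37 or higher, and the diamonds are above the circles in each of them.

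Gene by gene, 136 of 354 members (38.4%) were called higher in asynchronous S38A at an adjusted p under 0.05, beside 11.7% of all genes tested, and 13 (3.67%) lower, beside 9.54%. In mitotic cells 143 (40.4%) were called higher, beside 8.31%, and 6 (1.69%) lower, beside 8.72%. Both S38A libraries exceeded both WT libraries in each state for 204 members (57.6%, beside 17%), and lay below both for 11 (3.11%, beside 14.5%). These counts use the contrast that chose the chromosome, so nothing further is read from them. Scaling to the ERCC spike-in RNA in place of gene reads gave 40 members called higher and 29 lower in asynchronous S38A. The share of all genes called on that scale is not given, so nothing is read from these counts. The scaling lowered the median of all genes tested from -0.02 to -0.47 in asynchronous S38A against WT, and the members' median was then 0.01. Changes are therefore given relative to the other genes. The member median minus that of other chromosomes was 0.49 in asynchronous and 0.63 in mitotic cells, and the spike-in scale left both within the spread between libraries.

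The difference varied along the chromosome. The members fall either side of a gene-poor stretch, in which Sel1l starts at 91.8 Mb, Flrt2 at 95.7 Mb and Gpr65 at 98.3 Mb. Before 95 Mb the median S38A minus WT of 270 members was 0.37 in asynchronous and 0.59 in mitotic cells. Beyond 95 Mb the 84 members had medians of 0.78 and 0.84. The boundary was set after seeing the values, and the difference across it was 0.41 and 0.25. The distal members had a median GC content of 42.7% against 39.0%. After the GC adjustment the medians were 0.48 and 0.53 before the boundary and 0.78 and 0.79 beyond it, so the difference was smaller in asynchronous cells (0.30) and not in mitotic cells (0.27). Against S38D the medians were 0.45 and 0.51 before, and 0.74 and 0.81 beyond. Among members of at least 10 CPM, 52 of 52 distal members were above 0 in asynchronous cells and 51 of 52 in mitotic cells, against 138 and 158 of 173 before the boundary.

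In single libraries the distal median exceeded that of the rest by 0.43 and 0.38 in asynchronous S38A and by 0.17 in each of the 2 mitotic S38A libraries. In S38D it did so by 0.18 and 0.11 in asynchronous libraries and by -0.02 and 0.00 in mitotic ones. The step in asynchronous cells was therefore also present in S38D against the same WT libraries, at a smaller size. With the GC adjustment the S38A steps in single libraries were 0.37 and 0.37, then 0.18 and 0.22, and the S38D steps 0.12, 0.13, 0.03 and 0.01. In the fitted values the asynchronous S38D medians were -0.08 before the boundary and 0.07 beyond it. After the GC adjustment these fitted medians were 0.00 and 0.04, so the S38D step depended on the measure. A lower stretch lay from 65 to 73 Mb, also bounded after seeing the values, where 39 members had medians of 0.24 and 0.36 against WT and of 0.31 and 0.28 against S38D.

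In windows of 10 Mb, the median of S38A minus WT ran from 0.03 (40 to 50 Mb, 6 members) to 0.88 (110 to 120 Mb, 32 members) in asynchronous cells. In mitotic cells it ran from 0.28 in the window from 40 to 50 Mb to 0.96 in that from 90 to 100 Mb (11 members). In the window from 40 to 50 Mb the S38D medians against WT were also low, at -0.58 and -0.35, and S38A minus S38D was 0.59 and 0.43. The running median of 15 neighbouring members was above 0 in 333 of 340 windows in asynchronous cells, with its lowest value (-0.18) around Smoc1 at 81 Mb. It was above 0 in all 340 windows in mitotic cells.

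**Figure D3:**
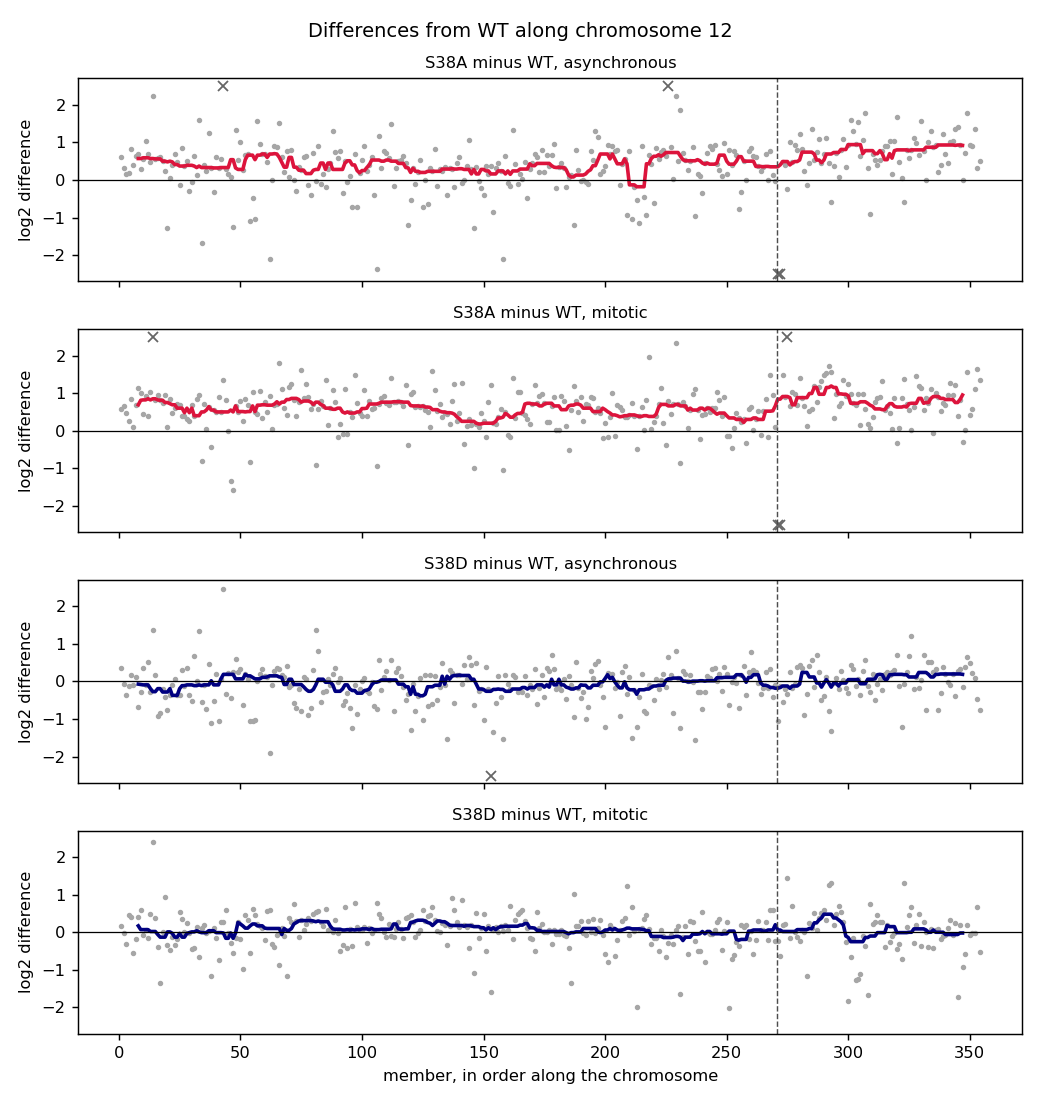
Log2 difference from WT (y axis) of each member in order along the chromosome (x axis) for S38A and S38D in both states; grey points are members, crosses are members beyond 2.5 in size drawn at that limit, lines are running medians of 15 members and the dashed line is the 95 Mb boundary. The S38A lines stay above 0 in 333 and 340 of 340 windows and reach their highest values (0.94 and 1.19) to the right of the boundary; the S38D lines run on both sides of 0, from -0.38 to 0.24 in asynchronous and from -0.25 to 0.48 in mitotic cells.

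At the ends, Rab10os, a transcript antisense to Rab10 and the first member at 3.2 Mb, had a log2 S38A minus WT of 0.61 ± 0.117 (SE) and 0.58 ± 0.115. Reads of antisense pairs cannot be told apart here, because the strand setting of the counting is not known. Sp8, a transcription factor gene and the last member at 118.8 Mb, was near the read threshold at 0.637 to 3.90 CPM and had values of 0.50 ± 0.611 and 1.34 ± 0.549. Next to the omitted span, Akt1, a kinase downstream of PI3K, stood at 0.90 and 0.57, and on the far side Cdca7l, a MYC partner, stood at 1.36 and 1.12. The outermost genes inside the span had similar values, with Cep170b at 1.28 and 0.60 and Rapgef5 at 1.13 and 1.09. At the read threshold, Gpr65 and Gm6988 were just inside, with 10 reads in their second highest library. L3hypdh, Ccdc177, Numb, Gm47817, Ttc8 and Gm49602 were just outside with 9.

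Most members of known role stood higher in S38A, as most members did. In the nuclear factor kappa B inhibitor gene Nfkbia, a feedback brake on that pathway, levels were 783 and 781 CPM in asynchronous WT, 1306 and 1125 with S38A and 652 and 767 with S38D. In mitotic cells Nfkbia had 564 and 577 CPM in WT, 853 and 933 in S38A, and 551 and 484 in S38D. Neither S38A pair overlapped the WT pair, with log2 differences of 0.64 ± 0.115 and 0.65 ± 0.115. Rrm2, the ribonucleotide reductase subunit that supplies deoxynucleotides, had 128 and 126 CPM in asynchronous WT against 248 and 246 in S38A, and 76.1 and 98.7 against 174 and 188 in mitotic cells. Dlst, a subunit of the 2-oxoglutarate dehydrogenase complex, had 259 and 277 against 458 and 490 CPM, and then 367 and 316 against 523 and 509. Both genes were apart from WT in both states.

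By role, the median S38A minus WT of every list was above 0 in both states. All lists hold only members of the chromosome chosen for this difference, so nothing about roles is read from it. Over all 354 members the median was 0.46 and 0.64, and over all genes tested -0.02 and 0.03. It was 0.51 and 0.67 for 10 ribosome and translation factor genes, with Eif2b2, a subunit of the exchange factor eIF2B, at 0.94 and 0.60, Eif5 at 0.22 and 0.91 and the tryptophan tRNA ligase Wars at 0.48 and 0.08. For 14 replication and repair genes it was 0.49 and 0.82, with Cinp at 0.78 and 0.56 and the demethylase gene Alkbh1 at 0.23 and -0.12. The 11 mitosis and chromosome structure genes had medians of 0.78 and 0.71, with all 11 above 0 in each state. Among them the cyclin gene Ccnk stood at 0.91 and 0.65, the dynein heavy chain gene Dync1h1 at 1.11 and 0.63, and the kinase gene Vrk1 at 0.78 and 1.31.

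For 16 lymphocyte signalling genes the medians were 0.49 and 0.57, with the protease gene Adam17 at 0.66 and 0.85 and the small GTPase gene Arf6 at 0.28 and 0.16. The 26 transcription and chromatin genes had 0.40 and 0.85, with Max, the partner with which MYC binds DNA, at 0.27 and 0.49, Snw1 at 0.69 and 0.84 and Foxn3 at 1.02 and 0.66. The 18 mRNA processing genes had 0.47 and 0.70 and all stood above 0 in mitotic cells, with Slirp at 0.35 and 0.52 and the poly(A) polymerase gene Papola at 0.53 and 0.89. The 4 ribosome biogenesis genes had 0.50 and 0.76, with Ddx24 at 1.31 and 0.73, Fcf1 at 0.72 and 0.60 and Nol10 at 0.28 and 0.82.

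The 28 chaperone, ER and vesicle genes had medians of 0.34 and 0.56, and their most abundant members differed. The disulfide isomerase gene Pdia6 stood at 0.55 and 0.49 and the lysosomal gene Laptm4a at 0.37 and 0.40. Sel1l, the adaptor of ER-associated degradation, stood at -0.02 and 0.10, with 449 and 458 CPM in asynchronous WT and 432 and 460 in S38A, so its pairs overlapped. The 13 proteasome and ubiquitin genes had 0.53 and 0.77, with the proteasome genes Psmc1 at 0.81 and 0.69 and Psma6 at 0.53 and 0.77. This list as written does not hold Psma3, a proteasome gene that stood at -0.07 and -0.11. The 31 metabolic enzyme genes were the lowest list in asynchronous cells at 0.26, with 0.55 in mitotic cells. Of these, the iron-sulfur cluster gene Glrx5 stood at 0.70 and 0.37 and the lysosomal cholesterol carrier gene Npc2 at 0.11 and -0.22.

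Genes that did not follow the chromosome were a minority. Averaged over both states, 155 of 225 members of at least 10 CPM (68.9%) lay between 0.25 and 1, against 22.1% of such genes on other chromosomes. At or below 0 were 20 members (8.89%, against 49.2% elsewhere), between 0 and 0.25 were 28 (12.4%), and above 1 were 22 (9.78%, against 1.09%). State by state, 190 of the 225 were above 0 in asynchronous cells and 209 in mitotic cells. The classes use the values that chose the chromosome, so the shares are a description and nothing is read from their distance to other chromosomes. The 8 named members farthest below the chromosome median in both states, by rule, were Sav1, Ifrd1, Sipa1l1, Pnpla8, Klhdc1, Pomt2, Psma3 and Dhrs7. All lay before 95 Mb. The 8 farthest above were Adssl1, Baz1a, Arid4a, Zfp839, Cpsf2, Nrde2, Otub2 and Cdca7l, and 6 of them (75%) lay beyond 95 Mb, where 23.1% of members of that level lie. Both sets and the 95 Mb boundary were chosen on the same S38A values. Nothing is therefore read from where the sets lie. Their median GC content was 48.2% for the high set, 38.2% for the low set and 39.3% for all members of that level, and its part in the choice was not tested.

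Ifrd1 was among the most abundant members. It had 995 and 1156 CPM in asynchronous WT, 845 and 856 in S38A and 725 and 667 with S38D. In mitotic cells it had 1498 and 1361 CPM in WT, 1318 and 1349 in S38A and 1110 and 1136 in S38D. WT was the highest line in both states, and S38A lay between the other 2. The log2 difference of S38A from WT was -0.34 ± 0.105 and -0.10 ± 0.104, and that from S38D was 0.29 and 0.25. For S38D the fall of 0.63 in asynchronous cells passed the test (adjusted p = 0.00144, edgeR quasi-likelihood), a call lost without WT asynchronous library 2, and -0.35 in mitotic cells did not (adjusted p = 0.0734).

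Psma3, whose start window is shown above, stayed between 45.3 and 62.6 CPM in all 12 libraries. It had 55.5 and 56.7 CPM in asynchronous WT, 57.7 and 49.3 in S38A and 62.6 and 45.3 in S38D, and 52.1 and 54.4, 45.4 and 53.5, and 51.3 and 60.5 in the mitotic groups, in the same order. The S38A values overlapped those of WT in asynchronous cells. Psma6, another subunit of the 20S core, had 118 and 122 CPM in asynchronous WT and 167 and 180 in S38A, with no overlap.

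The other 6 low members were of 11.5 to 19.7 CPM. Sav1, the scaffold of the Hippo kinases, stood at -0.85 ± 0.319 and 0.20 ± 0.344, and Pnpla8, a phospholipase, at -0.73 ± 0.259 and 0.36 ± 0.286. The Rap GTPase regulator Sipa1l1 stood at -0.61 ± 0.193 and 0.22 ± 0.194 and the dehydrogenase Dhrs7 at -0.49 ± 0.188 and 0.32 ± 0.185. These 4 were below 0 in asynchronous cells and above 0 in mitotic cells. Klhdc1 (0.00 and -0.35) and the mannosyltransferase Pomt2 (0.00 and -0.33) had the opposite order. Of the 8 low members, 0 were called for a mitotic change that differed between S38A and WT. Their median against WT was -0.41 in asynchronous and 0.05 in mitotic S38A. In S38D, against the same WT libraries, it was similar, at -0.44 and 0.07. Against S38D, Sav1 (0.49 and 0.14) and Pnpla8 (0.49 and 0.71) were higher in S38A in both states, whereas Klhdc1 (-0.43 and -0.54) was lower.

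**Figure D4:**
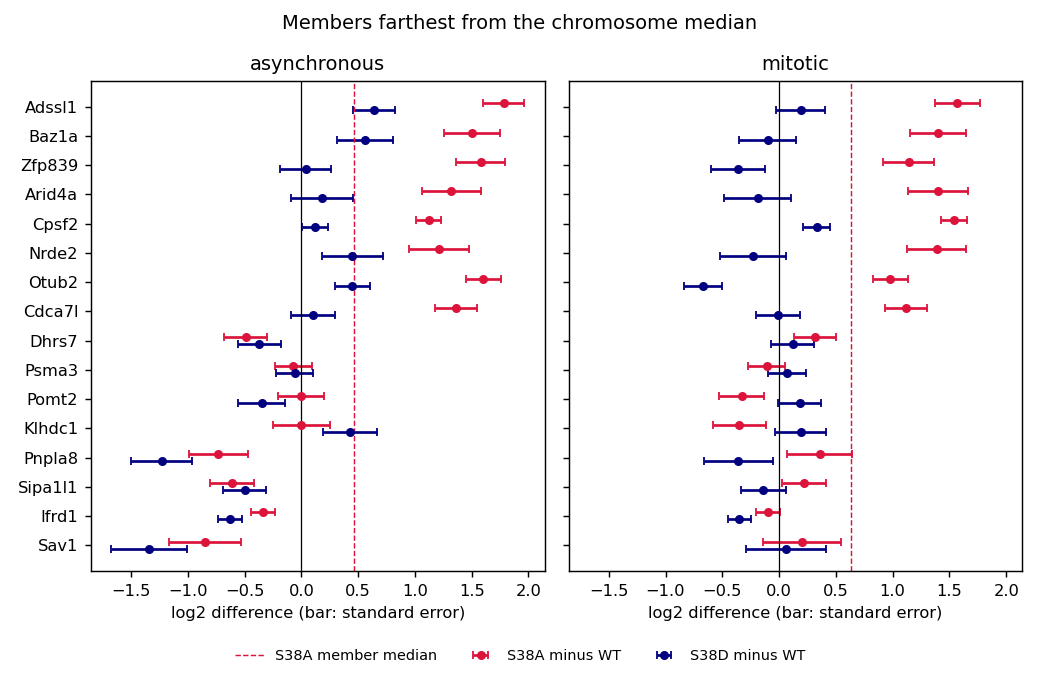
Log2 difference from WT with its standard error (x axis) for the 16 members farthest above or below the chromosome median (y axis), S38A in red and S38D in blue; the dashed line is the S38A median of all members. The upper 8 lie right of the dashed line in red in both states, and in blue they lie between -0.67 and 0.64.

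Among the high members, Cpsf2 had 121 and 112 CPM in asynchronous WT, 254 and 254 in S38A and 127 and 126 with S38D. In mitotic cells it had 58.0 and 48.9 CPM in WT, 156 and 156 in S38A and 69.6 and 65.2 in S38D. The S38A libraries were well apart from both other lines, with log2 differences from WT of 1.12 ± 0.113 and 1.54 ± 0.117. Adssl1 had 13.1 and 11.3 CPM in asynchronous WT, 44.6 and 40.2 in S38A and 20.4 and 18.0 in S38D, and 7.37 and 7.02, 20.1 and 22.9, and 8.45 and 7.97 in the same order in mitotic cells. Its log2 difference was the highest of the set, at 1.78 ± 0.181 and 1.57 ± 0.195, again with no overlap.

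Baz1a, a chromatin remodelling subunit, lies at 54.9 Mb, far from the distal stretch. It had 34.6 and 31.5 CPM in asynchronous WT, 83.7 and 103 in S38A and 59.2 and 38.5 in S38D, and 40.4 and 24.8, 95.6 and 77.8, and 31.7 and 29.4 in the same order in mitotic cells, with differences of 1.50 ± 0.248 and 1.40 ± 0.246. Arid4a, a DNA-binding partner of the retinoblastoma protein, stood at 1.32 and 1.40 in the low stretch at 71 Mb, close to Psma3. The deubiquitinase gene Otub2 stood at 1.60 and 0.98, Zfp839 at 1.58 and 1.14, Nrde2, a nuclear RNA surveillance factor, at 1.21 and 1.39, and Cdca7l at 1.36 and 1.12. For these 8 the S38D values lay between -0.67 and 0.64. Adssl1 alone passed the edgeR test upwards there, in asynchronous cells (0.64, adjusted p = 0.0408). That call was lost under 9 of 20 alternatives, among them leaving out either asynchronous WT library. Otub2 passed it downwards in mitotic cells (-0.67), a call lost under 4 of 20 alternatives.

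**Figure D5:**
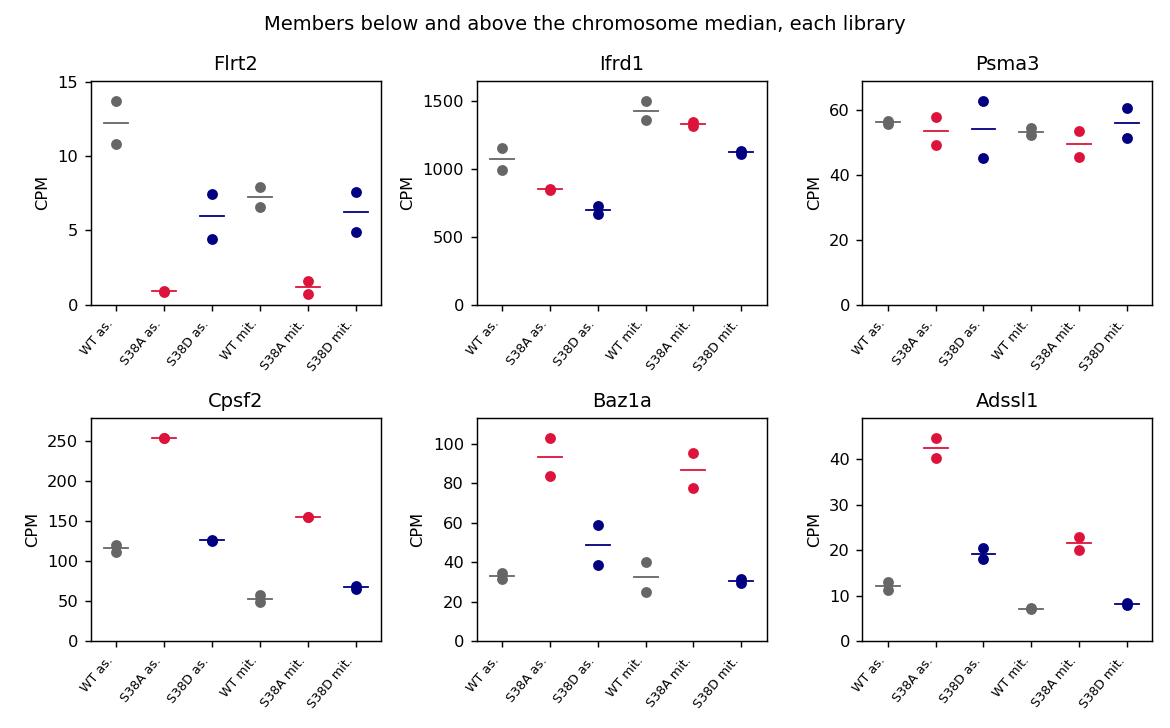
CPM (y axis, from 0) in each library, with the group mean as a bar, for 3 members below the chromosome median (Flrt2, Ifrd1, Psma3) and 3 above it (Cpsf2, Baz1a, Adssl1), in the 6 groups of line and state (x axis; as., asynchronous; mit., mitotic). Flrt2 is at 0.709 to 1.63 CPM in the 4 S38A libraries and above 4 CPM in the other 8, and the lower 3 genes are highest in the S38A libraries of each state.

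Among members with a mean under 10 CPM, Flrt2, Gpr65 and Hpcal1 stood far lower in S38A; the naming rule does not cover them, and they are named because of these values, which are a description. Flrt2 had 13.7 and 10.8 CPM in asynchronous WT, 0.945 and 0.862 in S38A and 7.48 and 4.42 in S38D, and 6.61 and 7.90, 1.63 and 0.709, and 7.62 and 4.89 in the same order in mitotic cells. Its summed reads were 11 in S38A against 108 in WT in asynchronous cells, a depth-scaled ratio of 0.0672 with a 95% exact counting interval of 0.0326 to 0.125. In mitotic cells they were 13 against 71, a ratio of 0.159 (0.0808 to 0.29). These intervals cover counting error only.

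Gpr65, the next member along the chromosome, had 10 and 2 reads in asynchronous WT, 8 and 7 with S38D and none with S38A. The mitotic libraries held 15 and 6 reads for WT, 6 and 8 with S38D, and 0 and 1 with S38A. Gpr65 reached 10 reads only in 1 library of each WT group, so it is a member only through the line where it is high, and no ratio to WT is given. Flrt2 and Gpr65 are neighbours among the members, just beyond the 95 Mb boundary. Sel1l before them stood at -0.02 ± 0.113 and 0.10 ± 0.113 (log2 S38A minus WT ± SE, asynchronous and mitotic), and Spata7 after them at 0.49 ± 0.403 and 1.49 ± 0.414. These single genes do not place a sharp step there. In bins of 5 Mb the medians were 0.12 and 0.96 from 90 to 95 Mb (3 members). They were 0.45 and 0.95 from 95 to 100 Mb (8 members), and 0.77 and 0.91 from 100 to 105 Mb (30 members). Hpcal1, a neuronal calcium sensor gene at 17.7 Mb, had 11.1 and 10.2 CPM in asynchronous WT against 4.57 and 4.48 in S38A, and 11.1 and 7.46 against 3.43 and 2.84 in mitotic cells. Its ratios were 0.39 (0.275 to 0.551) and 0.327 (0.215 to 0.487).

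In S38D the members showed no common direction. In asynchronous cells 12 of 354 (3.39%) rose, beside 4.87% of all genes tested, and 12 (3.39%) fell, beside 4.12%. In mitotic cells 2 (0.565%) rose, beside 1.15%, and 12 (3.39%) fell, beside 3.41%. Both S38D libraries exceeded both WT libraries in each state for 30 members (8.47%, beside 7.89%) and lay below both for 23 (6.50%, beside 8.78%). These shares are near or under the background. The calls depended on single libraries: leaving out 1 asynchronous WT library gave 4 or 7 calls against 24 in asynchronous cells, and leaving out S38D asynchronous library 2 gave 91. In mitotic cells leaving out either mitotic WT or either mitotic S38D library gave 5 to 9 calls against 14, and leaving out either asynchronous S38D library gave 33 or 34. On the spike-in scale the median of all genes tested in S38D against WT was -0.38 in asynchronous and -0.05 in mitotic cells. All 38 members called on that scale in asynchronous cells and all 10 called in mitotic cells fell. The share of all genes called on that scale is not given, so nothing is read from these counts.

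The members that changed most in S38D were few. Lpin1, a phosphatidate phosphatase of lipid synthesis, had 28.0 and 29.5 CPM in asynchronous WT, 35.9 and 36.0 in S38A and 13.1 and 13.6 in S38D, and 30.8 and 30.5, 23.0 and 22.7, and 14.6 and 12.9 in the same order in mitotic cells. S38D was the lowest line in both states, with falls of 1.10 (adjusted p = 0.00051) and 1.16 (adjusted p = 0.000314) on the log2 scale. Jdp2, an AP-1 repressor gene, had 70.0 and 66.9 CPM in asynchronous WT, 120 and 117 in S38A and 49.7 and 39.6 with S38D. In mitotic cells Jdp2 had 100 and 82.9 CPM in WT, 84.6 and 81.4 in S38A and 22.9 and 22.6 in S38D, a fall of 2.01 (adjusted p = 5.67e-07). The esterase gene Iah1 fell by 0.62, a call lost without WT asynchronous library 2, and by 0.97 in mitotic cells, and the serine protease inhibitor gene Serpina3g fell by 1.11 in mitotic cells (adjusted p = 0.000342). Gphn (fell by 1.00), Sav1 (fell by 1.34) and Pnpla8 (fell by 1.23) were lower in asynchronous S38D, calls lost without S38D asynchronous library 1 and without WT asynchronous library 1. Upwards, Cinp rose by 0.71, Atxn7l1 by 0.80 and Tmed8 by 0.78 in asynchronous cells, and Sypl by 0.49 and Adam17 by 0.47 in mitotic cells. The calls of Cinp, Atxn7l1 and Tmed8 were lost without WT asynchronous library 1, the last pair also without WT asynchronous library 2 or S38D asynchronous library 1. Those of Sypl and Adam17 were lost without any of the mitotic WT or S38D libraries, and all 5 on the spike-in scale.

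Across the mitotic state, averaged over the 3 lines, the members changed as other genes did. Of 354, 70 (19.8%) rose, beside 20.5% of all genes tested, and 77 (21.8%) fell, beside 21.6%. The spike-in scale moved the median of all genes from -0.02 to -0.20. It gave 39 members rising and 116 falling, with no share of all genes on that scale to set beside them. Hdac9, a class II histone deacetylase gene, fell from 78.0 and 72.0 to 17.9 and 20.2 CPM in WT, from 94.1 and 74.3 to 28.6 and 32.1 in S38A, and from 60.6 and 64.0 to 24.1 and 18.5 in S38D. All 6 mitotic libraries lay below all 6 asynchronous ones, with a mean fall of 1.67 (adjusted p = 2.16e-09). Pik3cg, the gamma catalytic subunit of PI3K, fell by 1.36, Otub2 by 1.31 and Adssl1 by 0.99. By role, 11 of 28 chaperone, ER and vesicle genes fell and 4 rose, 7 of 26 transcription and chromatin genes fell and 3 rose, 5 of 13 proteasome and ubiquitin genes fell and 1 rose, and 4 of 11 mitosis genes fell and 2 rose. More rose than fell among 14 replication and repair genes (3 and 1) and 10 translation genes (2 and 1). The numbers were equal among 31 metabolic enzyme genes (5 and 5), 16 lymphocyte signalling genes (4 and 4) and 18 mRNA processing genes (3 and 3), and none of 4 ribosome biogenesis genes passed the test. The tRNA methyltransferase gene Trmt61a rose by 0.95 (adjusted p = 3.28e-06) and Alkbh1 by 0.94, and so did 3110056K07Rik (1.03) and Gm34220 (0.96).

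The mitotic change differed between S38A and WT for few members. The median of this difference was 0.12 over the 354 members and 0.01 over all genes tested, and 0.03 after the GC adjustment. Called were 2 members (0.565%) with the higher change in S38A, beside 0.496% of all genes, and 3 (0.847%) with the lower change, beside 0.496%. Mia2, an organiser of ER exit sites, had 101 and 85.3 CPM in asynchronous WT against 65.2 and 55.4 in S38A, and 55.5 and 49.4 against 71.2 and 76.8 in mitotic cells, so the order of the lines turned over. Erg28, a scaffold of sterol synthesis enzymes, turned over the other way, from 486 and 478 in WT against 639 and 625 in S38A to 618 and 574 against 436 and 432. Neither pair overlapped in either state. The edgeR calls rest on single libraries: 0 were left without any of the S38A libraries, either asynchronous WT library or WT mitotic library 1, and 1 without either mitotic S38D library, whereas leaving out S38D asynchronous library 1 or 2 gave 34 and 36. At an unadjusted p under 0.05 there were 68 of 354 members, beside 19% of all genes. On the spike-in scale the median of S38A minus WT over all genes tested was -0.47 in asynchronous and 0.03 in mitotic cells. All 19 members called on that scale rose relative to WT, the direction in which that scale moves genes in general. No share of all genes is given there, so nothing is read from this count.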

How the data were processed

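RNA of 12 libraries was measured by 3′ mRNA sequencing (QuantSeq forward, with ERCC spike-in RNA), per the labels' protocols. The deposited files hold counts: whole reads per gene, not normalized. Per the submitters' processing notes, build mm10 was used with STAR 2.5.3a, cutadapt 1.12 and bcl2fastq 2.16.0.10. How reads were counted, on which strand and with which annotation, is not given in the sources used here. Libraries held 3432875 to 6587997 gene reads, and amplified reads are not separate molecules, so counting intervals leave out every other source of error.

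GENCODE M21 matched 99.63% of gene identifiers. The members and lists were chosen with earlier results of these data known. Counts were filtered with filterByExpr (minimum 10, 10477 genes), scaled by TMM and fitted in edgeR 4.0.16 (R 4.3.3, limma 3.58.1) with 1 mean per group and 6 residual degrees of freedom. Quasi-likelihood p-values were Benjamini-Hochberg adjusted across the 10477 genes and called at 0.05. The code was tested on simulated data. S38A against WT, which chose the chromosome, carries no printed p-value. GC adjustment subtracted medians of 8 classes of GC content in the last 300 nt, taken from other chromosomes. Promoter windows are from RefSeq (GRCm38.p6) and matched 293 members, each by the window nearest its GENCODE start with no limit on distance.

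Named genes were, by rule, the 3 most abundant members of each role list, the 8 lowest and 8 highest members of at least 10 CPM against the chromosome median in both states, the end and edge members, and up to 4 members per direction called in each tested comparison. Alternatives were DESeq2 1.42.0, its size factors within edgeR, TMM without chromosome 12, spike-in scaling, no filter, a 10 CPM filter, a replicate block, each library left out, bins of 5 Mb and members of at least 10 CPM. Added after seeing the data were the GC adjustment, medians relative to other chromosomes and both libraries that stand apart left out (S38D asynchronous 1 and WT mitotic 1).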

Additional observations from a re-analysis of the deposited data

Results flagged for a closer look

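For 5 members of at least 10 CPM the mitotic change differed between S38A and WT in edgeR's quasi-likelihood interaction test. It was higher in S38A for Mia2 by 1.12 (adjusted p = 0.0205) and for Dld, the dihydrolipoamide dehydrogenase gene, by 1.06 (adjusted p = 0.0362). Dld had 47.1 and 43.9 CPM in asynchronous WT and 48.1 and 49.1 in S38A, and 24.4 and 30.1 against 60.0 and 61.2 in mitotic cells. It was lower in S38A for Jdp2, by -0.94 (adjusted p = 0.0301), for A230087F16Rik, by -0.92 (adjusted p = 0.0289), and for Erg28, by -0.85 (adjusted p = 0.0143). A230087F16Rik had 45.0 and 45.6 CPM in asynchronous WT and 85.4 and 80.5 in S38A, and 71.8 and 64.9 against 69.8 and 62.2 in mitotic cells. The calls were lost in 7 (Erg28) to 10 (Mia2) of 12 fits that left out 1 library, and those of Jdp2, Erg28 and A230087F16Rik on the spike-in scale.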

How the results depend on the processing

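The median of S38A minus WT over the members stayed above 0 under every alternative run. In asynchronous cells (0.46) it was 0.51 with a 10 CPM filter, 0.52 with TMM factors without chromosome 12, 0.53 with no filter, with members of at least 10 CPM or with the GC adjustment, 0.50 without both libraries that stand apart, and 0.01 on the spike-in scale, which lowers the median of all genes as well. In mitotic cells (0.64) it was 0.59 with the 10 CPM filter, 0.66 with no filter, 0.62 for members of at least 10 CPM, and 0.60 with the GC adjustment and without both libraries. Relative to other chromosomes it was 0.53 with no filter in asynchronous cells, and 0.59, 0.61 and 0.66 in mitotic cells with the 10 CPM filter, without both libraries and with no filter. Leaving out single libraries gave 0.46 to 0.51 and 0.59 to 0.65, and relative to other chromosomes 0.48 to 0.52 and 0.61 to 0.63. The step at 95 Mb was 0.30 with the GC adjustment in asynchronous cells and 0.35 to 0.44 without single libraries. In mitotic cells it was 0.22 with the 10 CPM filter, 0.28 without both libraries, 0.21 for members of at least 10 CPM, 0.27 with the GC adjustment and 0.18 to 0.28 without single libraries.

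The S38D median in asynchronous cells (-0.06) crossed 0: it was 0.06 with the 10 CPM filter, 0.01 without both libraries or with the GC adjustment, -0.01 with no filter, -0.42 on the spike-in scale and -0.06 to 0.01 without single libraries. Relative to other chromosomes it was 0.02, 0.00 and -0.01 with the 10 CPM filter, without both libraries and with no filter, and -0.06 to 0.00 without single libraries. In mitotic cells (0.07) it was 0.04 without both libraries, 0.09 with no filter, 0.02 on the spike-in scale, 0.05 with the GC adjustment and 0.04 to 0.10 without single libraries. Relative to other chromosomes it was 0.04 without both libraries and 0.04 to 0.11 without single libraries.

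Against 24 members called in asynchronous S38D, DESeq2 gave 14, no filter 44, spike-in scaling 38 and single libraries left out 4 to 91. Against 14 in mitotic S38D, DESeq2 gave 8, no filter 22 and single libraries left out 5 to 34. DESeq2 gave 97 mitotic calls against 147, which ran from 114 to 167 without single libraries. Against 5 calls of a different mitotic change there were 21 without both libraries, 24 with no filter, 19 on the spike-in scale and 0 to 36 without single libraries. A fit without 1 library assumes that the lone library of that group varies like the others. On the spike-in scale, which lowers all genes together, 14 of 64 named values of S38A minus WT in asynchronous cells changed sign, as small values above 0 must; 2 of these had been called, Laptm4a (-0.09) and Erg28 (-0.07). Of 63 called values of named genes, 32 were kept under all 20 fits. The cause of these changes was not tested.

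The replicate numbers did not pair the samples across all groups. Of 15 correlations of replicate differences between groups over 7062 genes, 3 were above 0.1 and 3 below -0.1. The 3 above joined asynchronous S38D, mitotic WT and mitotic S38A (0.549, 0.591 and 0.786). The 3 below set each of these groups against asynchronous S38A (-0.362, -0.364 and -0.399). What these groups shared was not tested. With the replicate number as a block, 31 members were called in asynchronous S38D, 15 in mitotic S38D, 154 in the mitotic comparison and 5 for the difference in mitotic change, and the S38A medians were 0.46 and 0.65. Depth limits members under about 5 CPM most: their differences had an interquartile range of 0.86 to 0.97, against 0.28 to 0.51 above 100 CPM.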
